A study of Mus musculus with 24 samples.

Results

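The 10 genes described here were chosen by the measured difference in signal between SMA and wild-type (WT) mice in the medial motor column of the mouse spinal cord (MMC), which was among the largest there or differed from that in the other tissues. They are Padi1, Fam183b, Tcea3, Coa4, Plek2, Gbp5, Stard5, Dennd3, Ranbp3l and Polr1a. Every probe annotated with 1 of these symbols was taken, which gave 20 of the 34885 probes with a single gene symbol on an Illumina mouse bead array, for 10 of 19057 genes. Because the SMA effect in MMC chose the members, its size there, and its contrast with the other tissues, are given below as description. Where a count of member probes past a threshold is given for either, it restates the choice and is not a test of it.

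The study held 24 arrays of FVB mice at postnatal day 4, in 8 groups of 3 biological replicates. WT and SMA mice were each sampled in MMC, the lateral motor column (LMC), the raphe and the dorsal root ganglion (DRG). SMA was taken to mean spinal muscular atrophy, in which motor neurons are lost when survival motor neuron protein is scarce. The allele carried by the SMA mice, any transgene they share with the WT mice, the way in which the tissue was collected and whether animals were pooled are not given in the sources used here. The RNA was isolated with a kit suited to tiny inputs and amplified as cDNA before labelling.

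The tissue labels were set against defining genes. The motor neuron gene Mnx1 was detected on 12 of 12 MMC and LMC arrays and on 0 of the 12 others. Chat, Isl1 and Slc5a7, also of motor neurons, were detected on the same 12 arrays but were less exclusive. Chat was detected on 6 of 6 DRG and 2 of 6 raphe arrays too, Isl1 on 6 of 6 DRG arrays and Slc5a7 on 6 of 6 raphe arrays. Avil of sensory neurons was detected on 6 of 6 DRG arrays and nowhere else, and the serotonin transporter gene Slc6a4 on 6 of 6 raphe arrays, 2 DRG arrays and no motor column array. Tph2, which makes serotonin, read 10.9 or more on the 6 raphe arrays, but it was also detected on 6 of 6 DRG arrays (up to 6.53) and 5 of 6 LMC arrays (up to 7.69). Mbp of oligodendrocytes and Gfap of astrocytes were detected on all 12 motor column arrays, so these samples held glia as well as motor neurons. Their signal was stronger in MMC, with WT means of 11.3 for Mbp and 10.8 for Gfap, than in LMC, with 8.47 and 7.39. Smn1 itself was detected on 12 of 12 WT arrays and 0 of 12 SMA arrays, which matched every genotype label. Each tissue lay on 1 BeadChip of 6 arrays that held both genotypes, so tissue and chip cannot be told apart while SMA and WT were compared within a chip. Between 33.7 and 49.7% of probes were detected on an array. The array SMA LMC replicate 2 had the lowest share, and its mean correlation with the other arrays of its group was 0.836, the lowest of the 24. The WT MMC arrays also agreed less closely with each other (r of 0.812 to 0.896) than most groups.

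The member genes do not form a pathway. Padi1 encodes an enzyme that turns arginine residues of proteins into citrulline and is best known from skin. Tcea3 belongs to the TFIIS family, which helps arrested RNA polymerase II resume transcription, and Polr1a encodes the largest, catalytic subunit of RNA polymerase I, which makes ribosomal RNA. Ranbp3l binds Ran, the GTPase that drives transport through nuclear pores. Coa4 is a small mitochondrial protein needed to assemble cytochrome c oxidase, Stard5 a carrier of sterols with a START domain, and Dennd3 an activator of the vesicle GTPase Rab12. Plek2 is related to pleckstrin and acts on the actin cytoskeleton, Gbp5 is an interferon-induced GTPase of innate immunity, and Fam183b is found in cells with motile cilia.

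The stretch just before the annotated start is shown for 5 of the members, because the direction in MMC splits them. On the probe of highest mean level for each gene, Padi1, Tcea3 and Gbp5 were higher in SMA MMC, and Ranbp3l and Polr1a lower. Each sequence is the 250 bases before the start, 5′ to 3′ on the strand of the gene, from RefSeq on the mouse assembly GRCm38.p6, and capitals mark the motif matches described below. Padi1 is at chr4:140845779-140846028 on the minus strand. The other 4 are on the plus strand, Tcea3 at chr4:136247707-136247956, Gbp5 at chr3:142496684-142496933, Ranbp3l at chr15:8967699-8967948 and Polr1a at chr6:71908803-71909052.
Padi1: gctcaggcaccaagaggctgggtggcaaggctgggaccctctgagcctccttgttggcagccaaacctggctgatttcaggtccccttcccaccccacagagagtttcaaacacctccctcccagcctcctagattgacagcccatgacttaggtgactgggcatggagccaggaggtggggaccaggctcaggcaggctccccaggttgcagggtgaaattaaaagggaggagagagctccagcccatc
Tcea3: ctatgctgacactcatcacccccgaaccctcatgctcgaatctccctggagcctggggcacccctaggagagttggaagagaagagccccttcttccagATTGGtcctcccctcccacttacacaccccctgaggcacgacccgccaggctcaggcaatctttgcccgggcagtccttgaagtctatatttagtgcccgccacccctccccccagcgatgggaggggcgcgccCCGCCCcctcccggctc
Gbp5: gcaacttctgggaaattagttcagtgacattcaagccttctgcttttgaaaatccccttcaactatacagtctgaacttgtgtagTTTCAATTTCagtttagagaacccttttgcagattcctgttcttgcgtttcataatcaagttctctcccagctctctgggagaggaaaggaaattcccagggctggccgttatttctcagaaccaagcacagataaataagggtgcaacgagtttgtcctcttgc
Ranbp3l: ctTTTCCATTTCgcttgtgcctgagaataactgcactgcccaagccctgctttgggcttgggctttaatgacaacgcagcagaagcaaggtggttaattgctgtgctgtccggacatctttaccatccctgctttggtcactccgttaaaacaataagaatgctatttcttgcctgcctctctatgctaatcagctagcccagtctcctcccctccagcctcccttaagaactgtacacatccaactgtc
Polr1a: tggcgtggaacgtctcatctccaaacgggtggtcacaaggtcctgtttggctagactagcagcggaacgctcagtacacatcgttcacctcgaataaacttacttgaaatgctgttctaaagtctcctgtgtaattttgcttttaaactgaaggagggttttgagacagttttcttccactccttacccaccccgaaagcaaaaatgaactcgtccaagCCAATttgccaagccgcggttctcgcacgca

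A total of 6 motifs were searched on both strands in the 9 members with an entry in the promoter table and in all 32841 promoters of this length. The CCAAT box, searched as CCAAT, was found in 5 of the 9 members (Tcea3, Polr1a, Fam183b, Stard5 and Coa4) and in 33.9% of all promoters. The GC box, searched as GGGCGG, was found in 4 members (Tcea3, Plek2, Stard5 and Coa4) and in 32.7% of all promoters. The interferon response core, 2 copies of GAAA in the same direction with 2 bases between them, was found in 2 members, Gbp5 and Ranbp3l, and in 2.98% of all promoters. In Gbp5 it lay 156 bases before the start and in Ranbp3l 239 bases before it, as the capitals show on the opposite strand. TATAAA (12.4% of all promoters), the AP-1 motif TGANTCA (6.75%) and the p53 half-site (7.13%) were found in 0 of the 9 members. No capitals stand in Padi1, which held none of the 6 motifs.

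Levels below are log2 values of background-corrected, quantile-normalized probe signals. A probe was called detected on an array where the deposited detection p was under 0.05, and undetected member probes gave values from 4.36 to 5.61 on this scale, which have no order among themselves. Of the 20 member probes, 13 were detected on all 3 arrays of at least 1 group and 3 were detected on no array. The lead probe of a gene is the one with the highest mean over the 24 arrays. Of the genes, 3 had 1 probe and 7 had more than 1. On the 10 lead probes, the 3 SMA MMC values did not overlap with the 3 WT MMC values, with SMA above in 8 and below in 2. Of all 34885 named probes 11.1% did not overlap in MMC, and of the 13184 probes tested there 1.33% passed an adjusted p of 0.05 in limma. The SMA effect in MMC minus its mean in the other 3 tissues passed for 0.125% of probes tested, and for 6 of the 20 member probes. These shares are background for counts that the choice of members fixed. The median SMA difference of all tested probes in MMC was 0.05.

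**Figure D1:**
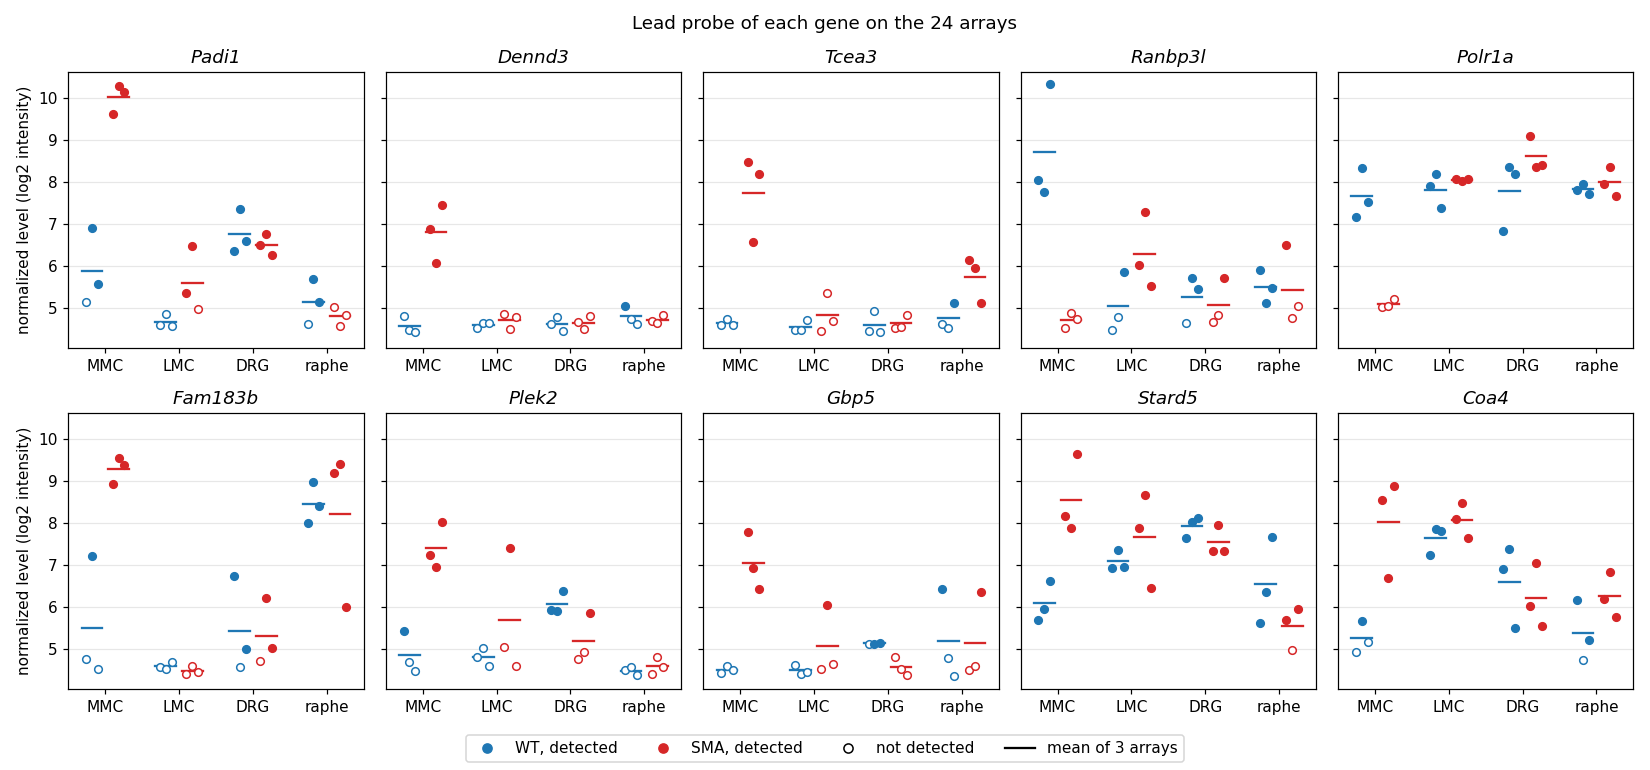
Log2 level of the lead probe of each of the 10 genes on all 24 arrays, by tissue, with WT and SMA arrays in different colours; filled points are detected arrays, open points undetected ones, and lines the mean of 3 arrays. In MMC all 3 SMA values lie above the WT values for 8 genes and below them for Ranbp3l and Polr1a.

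Padi1 was far higher in SMA MMC than in WT MMC. Its single probe (ILMN_2637742) read 5.16, 6.90 and 5.57 on the WT MMC arrays and 9.62, 10.29 and 10.15 on the SMA MMC arrays. The lowest SMA array was thus far above the highest WT array, and the probe was detected on 2 of the 3 WT arrays. Before normalization the signals were 17, 101 and 19 in WT and 754, 1254 and 1047 in SMA. The SMA mean was 10.02 ± 0.349 (SD, n = 3) against 5.88 ± 0.912 in WT, a difference of 4.14 (SE 0.451) or 17.7-fold. In the DRG the probe was detected on all 6 arrays, at 6.36, 7.36 and 6.61 in WT and 6.50, 6.76 and 6.27 in SMA, so that genotypes overlapped. In LMC it was detected on 0 WT arrays (4.59, 4.87 and 4.58) and 2 SMA arrays (5.36, 6.48 and 4.97), and was at least 1.27-fold higher in SMA. The third SMA value was undetected like the WT values, so its place above them carries no order. In the raphe it read 4.64, 5.68 and 5.16 in WT and 5.02, 4.57 and 4.85 in SMA.

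The "at least" values are used where 1 of the groups had 0 detected arrays. There the bright mean was divided by a bound, averaged over the dim arrays, which on each array was the weakest detected probe or the probe in question, whichever read higher.

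Fam183b, the gene of ciliated cells, was high in SMA MMC and in the raphe. Its single probe (ILMN_2635708) read 4.77, 7.22 and 4.53 in WT MMC, where only replicate 2 was detected, and 8.93, 9.55 and 9.38 in SMA MMC. The difference of the means was 3.78 (SE 0.741), from 5.51 ± 1.49 to 9.29 ± 0.320 (SD, n = 3). In the raphe the probe read 8.01, 8.98 and 8.41 in WT and 9.20, 9.42 and 6.01 in SMA. It was detected on no LMC array of either genotype, with 6 values from 4.42 to 4.69. In the DRG it was detected on 2 of 3 arrays of each genotype, at 6.74, 4.58 and 5.01 in WT and 4.71, 6.21 and 5.03 in SMA. Without WT MMC replicate 2 the MMC difference was 4.63. Of the ependymal markers, the summed level in MMC ran from 188 to 378 in WT and from 225 to 526 in SMA, so the groups overlapped. Foxj1, Tmem212 and Cfap126, which mark ependymal cells, were detected on 0 MMC arrays. Rarres2 of the same list was detected on 4 of 6 MMC arrays, with a mean of 5.83 in WT and 5.64 in SMA. Rsph1 was detected on 5 of 6, with a mean of 6.20 in WT and 7.56 in SMA (adjusted p = 0.281, limma). The part of these cells in the Fam183b values was not tested.

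The lead probes of the transcription genes Tcea3 and Polr1a went opposite ways in MMC, and no further probe of either gene separated the genotypes there. The lead probe of Tcea3 (ILMN_2776283) was undetected on all 3 WT MMC arrays, at 4.59, 4.75 and 4.60, and detected on all 3 SMA MMC arrays, at 8.48, 6.58 and 8.19. SMA replicate 2 was the lowest of these and still above every WT array. The gene was at least 5.52-fold higher on this probe (fitted difference 3.10, SE 0.374). In the raphe the same probe was detected on 1 of 3 WT arrays (4.63, 4.54 and 5.13) and 3 of 3 SMA arrays (6.15, 5.95 and 5.13). The lowest SMA raphe value thus met the highest WT value, and the difference was 0.98. On the 12 LMC and DRG arrays it was not detected. The second Tcea3 probe (ILMN_2907214) was detected on 7 of 24 arrays, and on 1 of 3 arrays in each MMC group, at 4.81, 6.38 and 4.79 in WT and 4.75, 4.78 and 6.18 in SMA. It showed no separation of the genotypes.

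Polr1a is the one member whose lead probe was detected in every group except SMA MMC. That probe (ILMN_2620069) read 7.17, 8.33 and 7.52 in WT MMC and 5.02, 5.06 and 5.23 in SMA MMC, where it was detected on 0 of 3 arrays. It was at least 5.04-fold lower in SMA MMC (fitted difference -2.57, SE 0.386). In the other 6 groups its 18 values ran from 6.85 to 9.11 and all were detected. The next 2 Polr1a probes were detected on most arrays, and they did not share the pattern. The probe ILMN_2700107 read 6.67, 7.08 and 8.36 in WT MMC and 6.29, 7.51 and 7.25 in SMA MMC, a difference of -0.35 (SE 0.565). The probe ILMN_2836664 read 5.34, 6.99 and 6.12 in WT MMC and 6.12, 5.78 and 6.05 in SMA MMC, a difference of -0.17 (SE 0.447). On both, SMA and WT values were interleaved and all 6 MMC arrays were detected. Of the last 2 probes, which are annotated to cDNA clones, ILMN_1230860 was detected on 1 WT and 2 SMA MMC arrays and differed by 0.66, and ILMN_1235695 was detected on no array. The position of these probes in the transcript was not analysed here.

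Ranbp3l, the Ran-binding gene, was the other member whose lead probe was lower in SMA MMC. Its lead probe (ILMN_1256423) read 8.06, 7.76 and 10.33 in WT MMC and 4.53, 4.89 and 4.75 in SMA MMC. All 3 WT arrays were detected and none of the SMA arrays was. It was at least 10.4-fold lower (fitted difference -3.99, SE 0.591), and without the high WT MMC replicate 3 the difference was -3.19. In LMC the direction was the other way, at 4.47, 4.80 and 5.87 in WT with 1 array detected and 6.03, 7.30 and 5.53 in SMA with 3 detected. Those groups overlapped, since the lowest SMA value lay below the highest WT value. In the raphe it read 5.90, 5.12 and 5.48 in WT and 6.51, 4.78 and 5.05 in SMA. The second probe (ILMN_2734815) was detected on 1 WT MMC array, at 5.05, 6.84 and 4.76, and on 0 SMA MMC arrays, at 4.68, 4.68 and 5.06. Its groups overlapped, and it was detected on 7 of 24 arrays.

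Coa4, the cytochrome c oxidase factor, was low in WT MMC and higher in SMA MMC. Its lead probe (ILMN_2817151) read 4.94, 5.67 and 5.18 in WT MMC with 1 array detected and 8.55, 6.69 and 8.88 in SMA MMC with 3 detected. SMA replicate 2 was again the lowest of the 3. The difference was 2.77 (SE 0.565), from 5.27 ± 0.373 to 8.04 ± 1.18 (SD, n = 3). The SMA MMC mean stood near that of LMC, where the values were 7.25, 7.87 and 7.81 in WT and 8.10, 8.47 and 7.65 in SMA. All 3 WT MMC values lay below all 6 LMC values. In the DRG it read 6.92, 7.38 and 5.51 in WT and 6.04, 7.06 and 5.55 in SMA. The raphe was low too, at 6.16, 4.74 and 5.23 in WT with 2 detected and 6.19, 6.84 and 5.76 in SMA with 3 detected. The raphe groups overlapped, and their means were 5.38 ± 0.723 and 6.27 ± 0.543 (SD, n = 3). The other Coa4 probe (ILMN_1218282) was detected on no array.

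Stard5, the sterol carrier, was detected in every group. Its lead probe (ILMN_1227508) read 5.70, 5.97 and 6.62 in WT MMC and 8.17, 7.87 and 9.64 in SMA MMC, all detected. The groups did not overlap, and the means were 6.09 ± 0.473 and 8.56 ± 0.944 (SD, n = 3), a difference of 2.47 (SE 0.547). The genotypes overlapped in LMC (6.94, 7.37 and 6.96 in WT, 7.89, 8.67 and 6.47 in SMA) and in the DRG (7.64, 8.03 and 8.11 in WT, 7.34, 7.94 and 7.34 in SMA). They overlapped in the raphe too, with 5.63, 6.36 and 7.67 in WT and 5.69, 4.99 and 5.96 in SMA, and the difference there was -1.01. The second probe (ILMN_2720674) was detected on 1 of 24 arrays.

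Plek2 was the only member with 2 detected probes that both separated the genotypes in MMC. Its lead probe (ILMN_2772855) read 5.42, 4.70 and 4.49 in WT MMC with 1 array detected and 7.25, 6.97 and 8.03 in SMA MMC with 3 detected, a difference of 2.54 (SE 0.487). The second probe (ILMN_2855998) read 5.03, 4.74 and 5.10 in WT MMC with 0 detected and 6.91, 7.03 and 6.87 in SMA MMC with 3 detected. On that probe Plek2 was at least 3.14-fold higher in SMA MMC (fitted difference 1.98, SE 0.288), and neither probe overlapped. In LMC the second probe was undetected in WT (4.74, 4.92 and 4.74) and detected on all 3 SMA arrays (5.68, 6.06 and 5.50), at least 1.40-fold higher. The lead probe was detected on only 1 SMA LMC array, replicate 2 at 7.41, the other 2 reading 5.05 and 4.61. In the DRG the lead probe read 5.92, 5.90 and 6.38 in WT and 4.76, 4.94 and 5.87 in SMA, with WT above SMA on every array, while the second probe overlapped there. Plek2 is also known from red blood cell precursors, and the summed level of 5 red blood cell markers in MMC ran from 2894 to 9318 in WT and from 1077 to 2706 in SMA, the opposite order. The part of these cells in the Plek2 values was not tested.

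Gbp5, the interferon-induced GTPase, was undetected on all 3 WT MMC arrays of its lead probe (ILMN_1218150), at 4.43, 4.61 and 4.51. It was detected on all 3 SMA MMC arrays, at 7.80, 6.94 and 6.43, and was at least 3.41-fold higher (fitted difference 2.54, SE 0.490). Single arrays elsewhere also carried it. In SMA LMC replicate 2 read 6.05, in WT raphe replicate 1 read 6.44 and in SMA raphe replicate 3 read 6.37, while the other 2 arrays of each of these groups lay between 4.36 and 4.78. Before normalization these signals were 24, 76 and 68 in the same order. The weakest detected probe on the SMA LMC array read 5.85, so its value lay close to the limit of detection. In the DRG the 3 WT values were 5.13, 5.14 and 5.15, with 2 detected, and the 3 SMA values 4.81, 4.53 and 4.39, with none detected. The other Gbp5 probe (ILMN_1244866) was detected on no array.

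Dennd3, the Rab12 activator, was detected on 4 of 24 arrays, the fewest of the lead probes. Its single probe (ILMN_1224129) was undetected on the WT MMC arrays, at 4.80, 4.47 and 4.44, and detected on all 3 SMA MMC arrays, at 6.88, 6.08 and 7.46. It was at least 2.87-fold higher (fitted difference 2.24, SE 0.256). Before normalization the signals were 7, -8 and -10 in WT and 80, 49 and 136 in SMA, so these values lay close to background. Of the 18 arrays of the other 3 tissues 1 was detected, a WT raphe array.

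**Figure D2:**
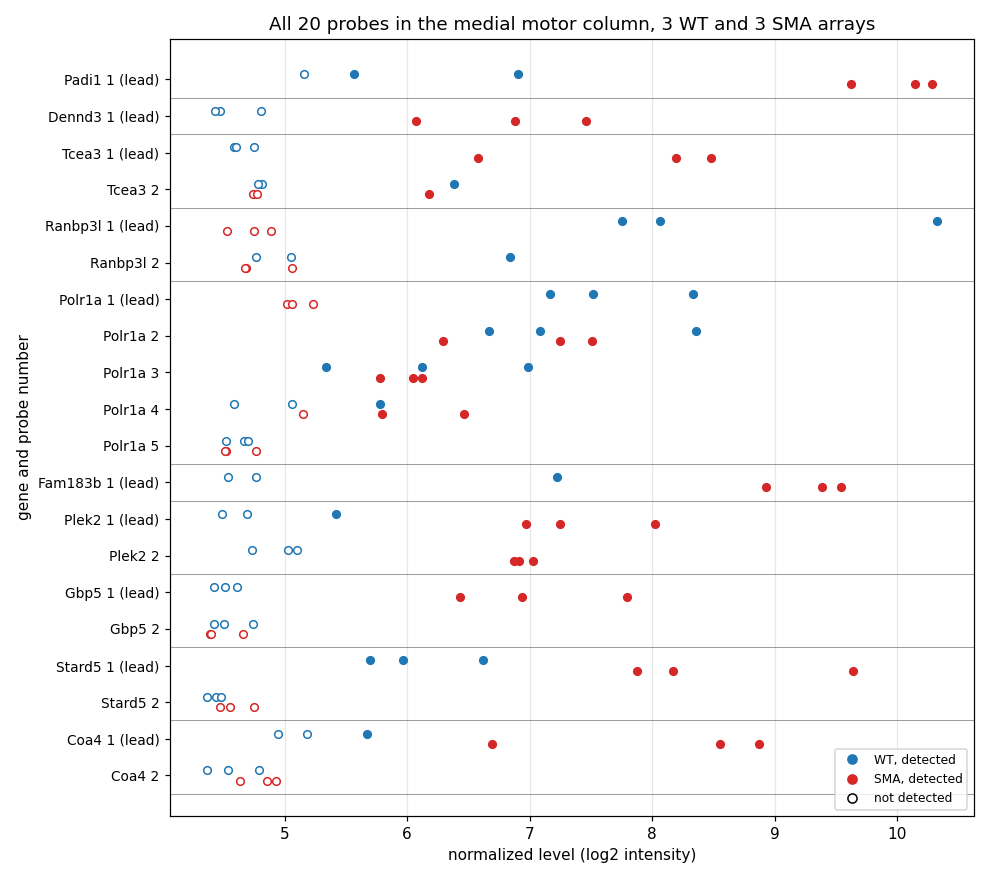
Log2 level of all 20 probes of the 10 genes on the 6 MMC arrays, 1 line per probe; filled points are detected arrays and open points undetected ones. Groups separate on the 10 lead probes and on the second Plek2 probe, and overlap or stay undetected on the others.

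Agreement between probes of a gene was described by Pearson's r of each further probe with the lead probe over the 24 arrays, which share the 8 groups. It was 0.76 for Plek2, 0.36 for Stard5, 0.20 for Ranbp3l, 0.19 for Coa4, 0.16 for Tcea3 and -0.15 for Gbp5. For Polr1a the 4 further probes had r of -0.09, -0.22, -0.34 and -0.16. Of the 10 further probes, 3 were detected on no array, and 5 on 1 to 12 arrays, so a weak r for those carries little. The 2 Polr1a probes detected on 23 and 21 arrays were the ones with enough signal to show the pattern of the lead probe.

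The scale of the MMC differences depended on the treatment of background. On the authors' deposited log2 values, which keep more of the background, the differences had the same sign and were smaller. They were 1.99 for Padi1, 1.48 for Fam183b, 0.89 for Tcea3, 0.90 for Coa4, 0.99 for Stard5, 0.68 for Plek2, 0.64 for Gbp5, 0.55 for Dennd3, -1.40 for Ranbp3l and -0.73 for Polr1a. All 10 lead probes kept their direction in the 10 settings tried. The genes were chosen by this difference and the groups did not overlap on these probes, so this was largely fixed by the choice.

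For 2 of 11 cell type marker lists the summed levels of the 3 SMA MMC arrays did not overlap with those of the 3 WT MMC arrays. Of single named probes 11.1% did not overlap there, but that share is no direct background for sums over several genes. The sum of the 11 motor neuron markers ran from 11831 to 12893 in WT and from 9473 to 10611 in SMA. Such a sum, on the linear scale, weighs bright genes most, and Chodl had the highest WT mean of the list. The list as a whole did not lean 1 way, with 6 genes above 0, 5 below and a median of 0.02, and Chat stood at 0.04 and Isl1 at 0.44. Chodl (11.9 in WT and 10.5 in SMA) and Mmp9 passed as lower (-1.34, adjusted p = 0.024, and -2.16, adjusted p = 0.0116, limma), and no marker of the list passed as higher. The red blood cell sums are given with Plek2, and of those markers 3 were tested, all below 0 with none past the threshold (median -1.41). In bulk samples, fewer cells of a type and less RNA per cell cannot be told apart. The part of the cell makeup in the member genes' values was not tested.

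Outside MMC no member probe passed for SMA against WT. None of the 7 member probes tested in LMC passed in limma (2 at an unadjusted p under 0.05, smallest adjusted p = 0.652), where 0.0146% of all tested probes passed and 7.07% did so unadjusted. In the DRG 0 of 6 passed (1 unadjusted, the lead probe of Polr1a, smallest adjusted p = 1), against 0.00624% of all and 1.67% unadjusted. In the raphe 0 of 8 passed (1 unadjusted, the lead probe of Tcea3, smallest adjusted p = 0.489), against 0.26% of all and 7.11% unadjusted. Little can be read from these counts, since few probes of any gene passed there. The SMA effects in these tissues were also part of the choice of some members. The counts are thus no test of those members. Over all 20 probes, the groups did not overlap on 5 in LMC, 4 in the DRG and 0 in the raphe, where 9.54, 8.63 and 11.4% of all named probes did not. The LMC count held the Polr1a, Gbp5 and Coa4 probes detected on no array, and the DRG count held that Polr1a probe. Their values have no order among themselves. The LMC count also held the Padi1 probe, whose lowest SMA value was undetected. On its lead probe Polr1a was higher in SMA DRG, at 9.11, 8.37 and 8.41 against 6.85, 8.35 and 8.19 in WT.

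The differences in LMC leaned on 1 array. Of the 10 lead probes 7 were detected on at least 1 SMA LMC array, and on 6 of these SMA LMC replicate 2, the array that stood apart, gave the highest of the 3 SMA LMC values. With it the SMA minus WT differences were 0.92 for Padi1, 1.24 for Ranbp3l, 0.87 for Plek2, 0.58 for Gbp5 and 0.58 for Stard5. Without it they were 0.49, 0.74, 0.01, 0.09 and 0.09 in the same order. For the other 5 genes the LMC differences ran from -0.11 to 0.43 with it and from -0.16 to 0.25 without it.

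**Figure D3:**
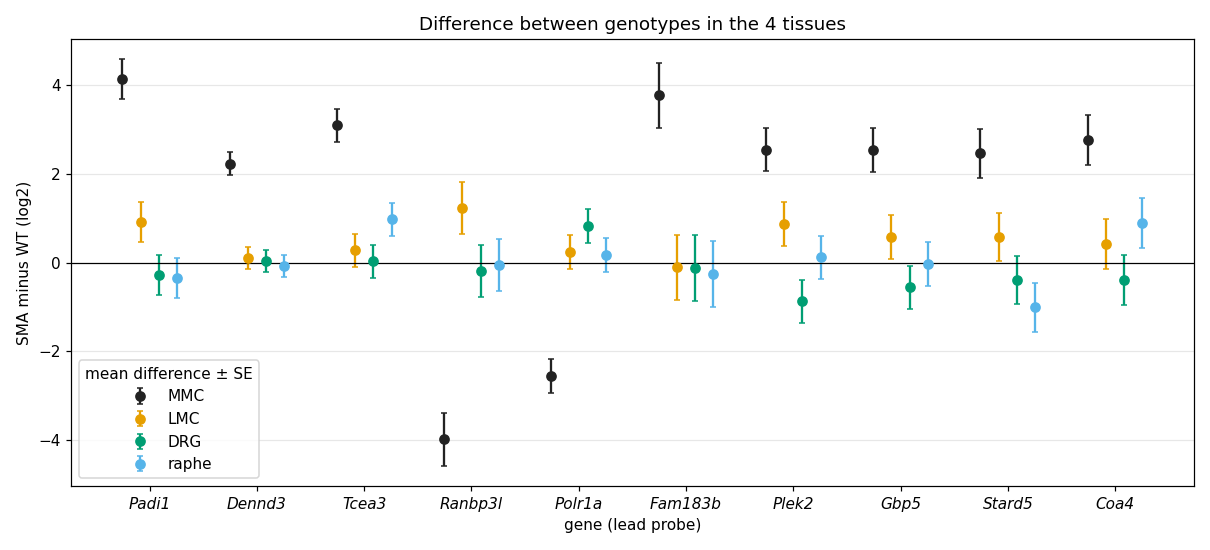
SMA minus WT log2 difference of the 10 lead probes in each of the 4 tissues, with bars of 1 standard error from the fit over 24 arrays. In MMC the differences run from -3.99 to 4.14, and in the other tissues from -1.01 to 1.24.

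The level of the member genes among LMC, DRG and raphe, averaged over genotypes, was not used to choose them and could be tested. It compares 6 arrays with 6 and takes no MMC array. Over the 3 comparisons 12 of 28 tests on member probes passed in limma. These were 3 of 9 for LMC against DRG, 5 of 9 for LMC against raphe and 4 of 10 for DRG against raphe. In the same order, 42.7, 49.3 and 29.1% of all probes tested passed, so a call is common in these comparisons.

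Fam183b was highest in the raphe, with a mean of 8.34 against 5.38 in DRG and 4.54 in LMC. It was at least 7.86-fold lower in LMC than in the raphe (fitted difference -3.80, SE 0.524, limma adjusted p = 4.48e-06), with all 6 raphe arrays above all 6 LMC arrays, and it was lower in DRG than in raphe by a difference of -2.96 (adjusted p = 0.000112). Padi1 was highest in the DRG, at 6.64 against 5.14 in LMC (difference -1.499, SE 0.319, adjusted p = 0.000643) and 4.99 in raphe (difference 1.66, SE 0.319, adjusted p = 0.000292). The 6 DRG values of Padi1 lay above all 6 raphe values. Coa4 was highest in LMC, at 7.86 against 6.41 in DRG (1.45, SE 0.399, adjusted p = 0.00565) and 5.82 in raphe (2.04, SE 0.399, adjusted p = 0.000268). DRG and raphe did not differ past the threshold for Coa4 (0.59, adjusted p = 0.295).

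Stard5 was lowest in the raphe, at 6.05, against 7.38 in LMC (1.33, SE 0.387, adjusted p = 0.00704) and 7.73 in DRG (1.68, SE 0.387, adjusted p = 0.0017). LMC and DRG were not separated (-0.35, adjusted p = 0.482). The lead probe of Plek2 was detected on 4 of 6 DRG arrays and no raphe array, and was at least 1.45-fold higher in DRG (fitted difference 1.08, SE 0.344, adjusted p = 0.0197). That call was lost with a background offset of 50 (adjusted p = 0.0572) and without SMA DRG replicate 3 (adjusted p = 0.0642). Its second probe was higher in LMC than in raphe by 0.58 (SE 0.203, adjusted p = 0.0222). In WT that probe was undetected on all LMC (mean 4.80) and all raphe arrays (4.61). The call thus rests on SMA LMC (5.75, 3 arrays detected) and shows no tissue difference in WT. On the lead probe LMC and DRG did not differ past the threshold (-0.37, adjusted p = 0.397), but they did without SMA LMC replicate 2 (-0.82, adjusted p = 0.0111) and with array weights (-0.61, adjusted p = 0.0168).

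Polr1a was level across these tissues on its lead probe, with means of 7.94 in LMC, 8.21 in DRG and 7.91 in raphe and adjusted p of 0.434, 0.945 and 0.45. Its probe ILMN_2700107, in contrast, was higher in LMC than in DRG by 1.22 (SE 0.4, adjusted p = 0.0174) and than in raphe by 1.44 (SE 0.4, adjusted p = 0.00522), so the Polr1a probes also disagreed here. Ranbp3l did not pass in any of the 3 comparisons. Tcea3 was lower than in raphe by a difference of -0.56 in LMC (adjusted p = 0.0833) and -0.63 in DRG (adjusted p = 0.0767) and did not pass. The raphe mean was 5.74 in SMA, with 3 arrays detected, and 4.77 in WT, with 1 detected. WT LMC (4.56) and WT DRG (4.61) were undetected, so these differences came mainly from the SMA raphe arrays. The calls changed with the setting. Against LMC it passed with only the arrays compared (adjusted p = 0.0474), with array weights (0.023) and without SMA LMC replicate 2 (0.0378) or SMA raphe replicate 3 (0.036). Against DRG it passed with only the arrays compared (adjusted p = 0.0166), with array weights (0.0414) and without SMA raphe replicate 3 (0.0341). Dennd3 and Gbp5 were not detected on all arrays of any of these groups and were not tested.

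Relatives of the members passed the threshold in MMC about as rarely as probes at large. The 10 lists held 131 other genes of the same families or pathways, of which 118 were on the array and 60 were detected well enough to test in MMC. In limma 0 of 60 passed, against 1.33% of all probes tested, and 8 (13.3%) had an unadjusted p under 0.05, against 14.9%. Both counts lie near the share over all probes, so they say little about whether the families share the members' differences. The nearest were in the RNA polymerase I list, where 3 of 8 tested genes lay above 0 and 5 below, with a median of -0.12. Rrn3, the factor that brings polymerase I to its promoter, differed by 1.15 (SE 0.295, adjusted p = 0.051), and the subunit gene Polr1e by 1.63 (SE 0.471, adjusted p = 0.0869), both towards higher values in SMA.

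Among the cytochrome c oxidase assembly factors, the family of Coa4, 13 of 19 tested genes lay above 0 and 6 below, with a median of 0.22. The smallest p values there belonged to Cox20 (1.17, adjusted p = 0.128) and Coa6 (1.01, adjusted p = 0.3). Of the guanylate-binding and interferon-induced genes, the family of Gbp5, 8 of 26 on the array were tested, 3 above 0 and 5 below, with a median of -0.37. Gbp7 stood at -1.29 (adjusted p = 0.402) and Ifit3 at -0.97 (adjusted p = 0.467). Of 16 motile cilium genes on the array only 2 were tested, Rsph1 at 1.36 (adjusted p = 0.281) and Ccdc39 at -0.06 (adjusted p = 0.977), with a median of 0.65.

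In the smaller families no gene passed either. Of the DENN domain genes 3 of 6 tested lay above 0 (median 0.01), with Dennd11 at -1.36 (adjusted p = 0.182) and Dennd2c at 1.17 (adjusted p = 0.369). Of the TFIIS genes 1 of 3 lay above 0 (median -0.19), with Tceanc2 at -0.98 (adjusted p = 0.393) and Tcea2 at 1.09 (adjusted p = 0.394). The Ran genes were balanced, 4 above and 4 below (median 0.02), with Rangap1 at 0.18 (adjusted p = 0.504) and Rcc1 at -0.46 (adjusted p = 0.508). Of the START domain genes 1 of 4 lay above 0 (median -0.25), with Stard9 at 1.07 (adjusted p = 0.268) and Stard8 at -0.88 (adjusted p = 0.439). Padi3, the only other deiminase tested, stood at -0.23 (adjusted p = 0.815), and Plek, pleckstrin itself, at 0.82 (adjusted p = 0.494).

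**Figure D4:**
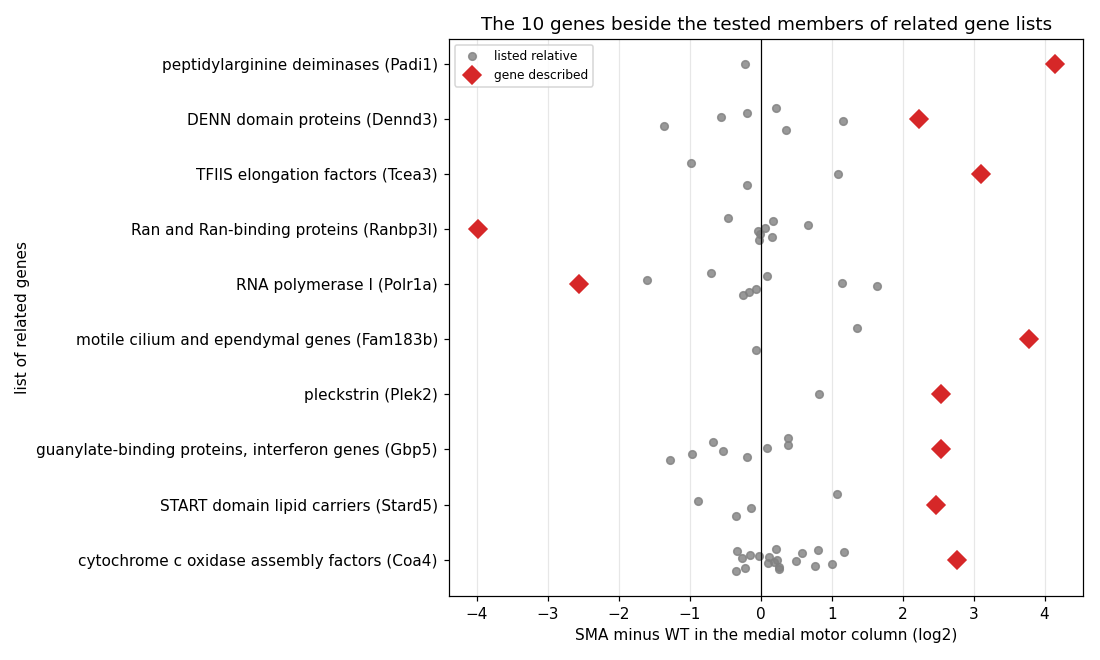
SMA minus WT log2 difference in MMC of the 60 tested relatives (points), by list, with the lead probe of each member gene (diamonds). The members were chosen for this difference and the relatives were not. Of the 60 relatives 0 passed an adjusted p of 0.05, against 1.33% of all probes tested.

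For each lead probe the 3 most alike genes were found by Pearson's r over the 24 arrays, among detected probes of other genes. This is a description, and the arrays share 8 groups, so genes that differ in the same group are alike by that alone. Dennd3 and Tcea3 were each other's most alike gene (r of 0.89), followed by Kdm3a (0.88 with Dennd3 and 0.85 with Tcea3) and Sgsm1 (0.87 and 0.82). Padi1 was most alike Cpne2 (0.84), Plek2 (0.81) and Sypl (0.81), and Plek2 most alike Sesn1 (0.82), Padi1 (0.81) and Mgmt (0.81). Fam183b was most alike Barx2 (0.84), Arap2 (0.82) and Ednrb (0.82). Coa4 was most alike Tmed10 (0.85), Ccng1 (0.83) and Pelp1 (0.83), and Stard5 most alike Itpripl1 (0.85), Smc1a (0.83) and Ttll5 (0.79). Gbp5 was most alike 1700007K13Rik (0.78), Yif1a (0.76) and Dip2b (0.76). Of the lower members, Ranbp3l was most alike Gsta3 (0.80), Pfdn1 (0.80) and Ptchd4 (0.78), and Polr1a most alike Uchl5 (0.84), Pdzd2 (0.79) and Atxn7l3 (0.78).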

How the data were processed

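Per the labels' protocols, RNA of each sample was amplified and labelled with Cy3 for Illumina bead arrays, and the submitters' processing notes name GenomeStudio. The first table that the authors deposited gives each probe an intensity with its detection p-value on every array. A second deposited table holds normalized log2 values and served as an alternative, with no method named in the sources used here.

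Intensities were corrected in limma 3.58.1 (R 4.3.3) by normexp, with background parameters derived from those detection p-values and an offset of 16, quantile-normalized over 24 arrays and put on a log2 scale. A linear model with 1 mean per group and a mean-variance trend was fitted at probe level to all 24 arrays, with 16 residual degrees of freedom. A probe entered a comparison if 1 or more of the groups compared had it detected (p under 0.05) on each of 3 arrays. P-values are two-sided and adjusted by the Benjamini-Hochberg method over all probes of a comparison. The fit was tested on simulated data with independent noise on each array. That simulation does not cover an outlying array or animals shared between arrays. The p-values measure the spread between arrays labelled biological replicates, and the number of arrays limits the precision.

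Of 45281 probes, 34885 had 1 symbol, 18 several and 10378 none; 0 symbols changed against the RefSeq gene table, and no column of values was left unused. All probes of the 10 genes were described, with, for each lead probe, the 3 genes of highest r, and of each related list the genes that passed or the 2 of smallest p. The members and lists were chosen with earlier results of these data known. Alternatives were the deposited values, another offset, 75th percentile scaling, other filters, variance models and weights, a replicate block, 1 probe per gene, the arrays of the tissues compared alone, and leaving out each array. Replicate numbers were taken as numbers only. Same-numbered WT and SMA arrays of a tissue did not deviate together in every case (correlations of -0.093 to 0.293). Same-numbered arrays of different tissues within a genotype were not compared in this way. Whether such arrays share an animal was thus not tested. The fit reported treats them as independent, both in the contrasts between tissues and in the SMA effect in MMC against the other tissues.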

Additional observations from a re-analysis of the deposited data

Results flagged for a closer look

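The SMA effect in MMC stood apart from the mean SMA effect in LMC, DRG and raphe on 6 probes, which passed the threshold for that difference over all probes. This contrast is among the values that chose the genes, so passing was fixed by the choice and is no test of them. The difference of the effects on the log2 scale was 4.04 for Padi1, 2.21 for Dennd3, 2.67 for the lead probe of Tcea3 and 1.64 for the second probe of Plek2 (ILMN_2855998). It was -4.32 for the lead probe of Ranbp3l and -2.98 for that of Polr1a. The remaining lead probes had differences of 3.94 for Fam183b, 2.74 for Stard5, 2.55 for Gbp5, 2.51 for Plek2 and 2.46 for Coa4.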

How the results depend on the processing

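The SMA effect of the 10 lead probes in MMC kept its direction in each of the 10 settings tried, and so did the second Plek2 probe. Since the choice of genes used this effect and the groups did not overlap on these probes, that outcome was largely fixed and is no test. The deposited values and an offset of 50 gave smaller differences. Counts of probes past the threshold were less stable. In MMC the count of 175 became 75 with no detection filter, 4 with only the MMC arrays, 64 with array weights, 114 with 1 probe per gene, and 162 to 416 with 1 array left out (416 without WT MMC replicate 2 and 302 without SMA MMC replicate 2). In LMC the count of 2 became 1 with the deposited values and with only the LMC arrays, 5 with array weights, and 2 to 16 with 1 array left out (16 without SMA LMC replicate 3). In the DRG the count of 1 became 103 with array weights and 1 to 3 with 1 array left out (3 without SMA DRG replicate 3). In the raphe the count of 39 (17 higher, 22 lower) became 63 with the deposited values, 19 with 75th percentile scaling (5 higher, 14 lower), 4 with only the raphe arrays (0 higher, 4 lower), 102 with array weights, 23 with 1 probe per gene, and 12 to 65 with 1 array left out (without WT raphe replicate 3 and SMA raphe replicate 2). For the effect in MMC against the mean of the others the count of 23 became 46 with the deposited values, 42 with an offset of 50, 10 with 75th percentile scaling, 8 with no filter, 7 with 1 probe per gene, and 8 to 82 with 1 array left out (without WT DRG replicate 3 and WT MMC replicate 2). With 1 probe per gene 4712 probes passed for LMC against DRG (7333 in the fit reported) and 5166 for LMC against raphe (8117). For DRG against raphe, array weights gave 7648 (5084).

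With the replicate number as a block, 162 probes passed in MMC, 2 in LMC, 1 in DRG, 42 in the raphe, 8 for MMC against the others, and 7345, 8132 and 5075 for the tissue contrasts. Differences near 0 changed sign when 1 array was left out, for LMC against raphe: Ranbp3l was at -0.0142 without WT LMC replicate 3 and -0.0603 without SMA LMC replicate 2, and Polr1a at -0.0661, -0.00131 and -0.0568 without WT LMC replicate 2, WT raphe replicate 3 and SMA raphe replicate 3. Over all arrays left out in turn, Ranbp3l ran from -0.0603 to 0.46 and Polr1a from -0.0661 to 0.136. The cause was not tested. The LMC differences without SMA LMC replicate 2 were added after seeing the data. Low signal limits the lead probes of Dennd3, Tcea3 and Gbp5, which were detected on 4, 7 and 8 of 24 arrays.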
